A study of Mus musculus with 12 samples.

Results

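The ribosomal proteins of the cytosolic ribosome were followed in mouse embryonic kidney and in reconstructed kidney organoids. A gene was taken as a member where its name in the array design follows the pattern of the Rpl, Rps or Rplp symbols or is Rpsa, where it is not an S6 kinase gene, and where all 12 arrays called its probe well above background. Of 84 names that match, 81 were members, out of 24468 genes on the array. By name alone, 34 were counted to the 40S and 47 to the 60S subunit. The other 3 names (Rpl3l, Rpl10l and Rpl39l) were well above background on 0 of 12 arrays. The rule reads names and background only, so Rack1 and Fau, which also give ribosomal proteins, are not members.

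Kidneys and organoids were measured on one-colour Agilent arrays, and each array value is a log2 signal minus that array's 75th percentile. Organoids after 7 days of culture (day 7, n = 3) and organoids directly after assembly (day 0, n = 3) combined 3 cell sources, namely nephron progenitors and ureteric bud, each derived from mESC with a B6 and 129SV background, and stromal progenitors from ICR wild-type kidney of E11.5. The organoids therefore hold cells of both backgrounds. A single array held E11.5 kidney cultured for 7 days. Fresh wild-type ICR kidneys without ureter had 1 array a stage, at E11.5, then E13.5, then E15.5, then E17.5, and last at birth (P0). Cultures were kept on a filter with Matrigel in medium with serum. The labels do not say how many animals went into an array or whether organoid replicates were separate cultures, so p-values measure the spread between these arrays, which may be technical.

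A ribosome consists of ribosomal RNA and about as many proteins as there are members here, nearly all in a single copy, so their messengers are usually kept in proportion. Most of these messengers begin with a pyrimidine tract, the TOP motif, through which the mTOR kinase and LARP1 control their translation and stability. Subunits are assembled in the nucleolus with the help of factors such as fibrillarin, and a surplus of free Rpl5 and Rpl11 binds Mdm2 and raises p53. Growing embryonic tissue depends on ribosome supply, and loss of single members in humans causes Diamond-Blackfan anaemia.

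The probes of 3 members and of their closest relatives are given first. Each is a 60-base probe of the array design, 5′ to 3′, and the capitals mark the longest run of bases that the 2 probes of a pair share.
Rps4l: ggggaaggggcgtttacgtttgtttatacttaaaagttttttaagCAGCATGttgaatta
Rps4x: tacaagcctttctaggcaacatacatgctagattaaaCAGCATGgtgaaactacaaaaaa
Rps12: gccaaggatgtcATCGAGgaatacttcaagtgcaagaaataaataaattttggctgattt
Rps12l2: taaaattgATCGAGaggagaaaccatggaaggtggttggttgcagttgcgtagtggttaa
Rpl22l1: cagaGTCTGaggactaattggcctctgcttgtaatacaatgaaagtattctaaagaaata
Rpl22: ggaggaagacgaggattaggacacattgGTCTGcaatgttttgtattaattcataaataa
In the mm9 coordinates of the array design these probes lie at chr6:148304043-148304102 (Rps4l, plus strand), chrX:99380274-99380333 (Rps4x, minus strand), chr10:23504999-23505058 (Rps12, minus strand), chr8:37089067-37089126 (Rps12l2, plus strand), chr3:28706237-28706296 (Rpl22l1, plus strand) and chr4:151706515-151706574 (Rpl22, plus strand). The longest shared run was 7 bases for Rps4l and Rps4x, 6 for Rps12 and Rps12l2 and 5 for Rpl22l1 and Rpl22. No pair among the 81 chosen probes shared a run of 20 bases (0 pairs). Probes were compared only with each other, so whether a probe also binds the messenger of its relative was not tested. RefSeq lists 79 members as protein coding and Rps4l as a transcribed pseudogene, and it does not list Rps12l2 under that name. The chosen probes of Rps27 and Rps29 are placed on another chromosome than their genes, and whether they read a copy was not tested.

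Promoters of 59 members were found in the RefSeq table for GRCm38.p6, as 70 windows of 300 bases that run from position -250 to position 50 around the gene's start. A set of 3 short motifs was searched. CCGGAAG on either strand, the core that ETS factors such as GABP bind, was in 25 of 70 member windows (35.7%), against 8.86% of all 32851 windows. AAGATGG on either strand, part of the YY1 motif, was in 12 of 70 (17.1%), against 6.34%. CTTTCC on the transcribed strand, a stretch of the kind that starts TOP messengers, was searched from 10 bases before the start to the window's end and was in 17 of 70 (24.3%), against 2.59%. The last 3 letters of CCGGAAG can overlap the first 3 of AAGATGG. Of the 70 member windows, 13 held at least 2 of the 3 motifs. Windows of 3 such members and of Rpl7a, which fell most among the protein-coding members in organoid culture, are printed on the strand of the gene, with motif matches in capitals.
Rps26: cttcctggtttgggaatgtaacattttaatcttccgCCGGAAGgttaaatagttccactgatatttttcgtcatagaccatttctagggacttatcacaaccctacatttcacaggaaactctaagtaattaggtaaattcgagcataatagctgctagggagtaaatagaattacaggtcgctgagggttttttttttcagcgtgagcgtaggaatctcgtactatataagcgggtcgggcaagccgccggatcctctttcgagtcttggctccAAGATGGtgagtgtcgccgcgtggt
Rps10: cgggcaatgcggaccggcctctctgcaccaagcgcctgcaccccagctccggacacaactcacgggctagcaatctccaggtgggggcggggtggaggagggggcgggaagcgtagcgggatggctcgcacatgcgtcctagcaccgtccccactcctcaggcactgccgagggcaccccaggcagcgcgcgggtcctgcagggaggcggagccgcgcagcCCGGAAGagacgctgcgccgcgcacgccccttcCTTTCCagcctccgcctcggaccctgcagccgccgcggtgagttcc
Rpl38: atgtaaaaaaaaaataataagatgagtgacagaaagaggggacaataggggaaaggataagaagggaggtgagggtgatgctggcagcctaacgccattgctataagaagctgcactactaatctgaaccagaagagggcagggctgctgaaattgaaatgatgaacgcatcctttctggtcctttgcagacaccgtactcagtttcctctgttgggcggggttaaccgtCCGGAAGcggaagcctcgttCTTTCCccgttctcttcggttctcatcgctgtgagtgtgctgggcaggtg
Rpl7a: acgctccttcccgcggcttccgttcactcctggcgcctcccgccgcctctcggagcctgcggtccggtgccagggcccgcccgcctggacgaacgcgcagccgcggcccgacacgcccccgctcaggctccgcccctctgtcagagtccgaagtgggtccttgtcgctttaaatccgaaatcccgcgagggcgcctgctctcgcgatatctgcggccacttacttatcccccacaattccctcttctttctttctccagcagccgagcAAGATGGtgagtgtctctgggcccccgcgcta
The windows lie at chr10:128626457-128626756 (Rps26, minus strand), chr17:27635195-27635494 (Rps10, minus strand), chr11:114668330-114668629 (Rpl38, plus strand) and chr2:26910557-26910856 (Rpl7a, plus strand). Rps26 holds CCGGAAG and AAGATGG, Rps10 and Rpl38 each hold CCGGAAG and CTTTCC, and Rpl7a holds AAGATGG. The table has no window for Rps4l.

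Ribosomal proteins were among the brightest messengers in every sample. Of 81 members, 79 were in the top 5% of 19605 genes by mean signal, and Rps4l and Rpl7l1 were the other 2. The members' share of the summed signal was 14.4%, 14.7% and 14% on the day 7 arrays and 14.2%, 13.3% and 14.6% on the day 0 arrays. It was 15.3% in cultured E11.5 kidney, and in fresh kidney 12.4% at E11.5, 12.8% at E13.5, 12.5% at E15.5, 11.9% at E17.5 and 10.8% at P0. This share was lowest at P0 and highest in cultured E11.5 kidney. The median member had a log2 value of 8.30, 8.38 and 8.35 on the day 7 arrays, against 8.38, 8.14 and 8.50 on the day 0 arrays. The second day 0 array lay below the other 2 for most members, so that the day 0 arrays spread more widely than the day 7 arrays.

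Members moved together across the arrays and moved little. The range of a member over 12 arrays had a median of 0.87 on the log2 scale, and it was under 1 for 67 of 81 members (82.7%), against 34.3% of 14459 other genes that were well above background on all arrays (median range 1.2). Most members were brighter than most of these genes, and ranges were not compared with genes of like signal. Each member was correlated with the mean of the other members over the 12 arrays, which share the scaling. The median Pearson r was 0.94 and 54 members (66.7%) were over 0.9, against 0.788% of the other genes. The least alike were Rpl7l1 (0.08), Rps4l (0.35), Rps21 (0.41), Rps13 (0.59) and Rpl22l1 (0.61). Rpl7l1 and Rpl22l1 are relatives of Rpl7 and Rpl22 made by separate genes. Among genes outside the rule, Sprr2a2 (0.99) was highest, and it is not a ribosomal protein gene by name. Cnrip1 (0.97), also not one by name, was near the top. So were the pseudogenes Rpl31-ps12 (0.98), Rps12-ps16 (0.97) and Rpl34-ps2 (0.97). Whether probes of such pseudogenes read the members' own messengers was not tested.

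**Figure D1:**
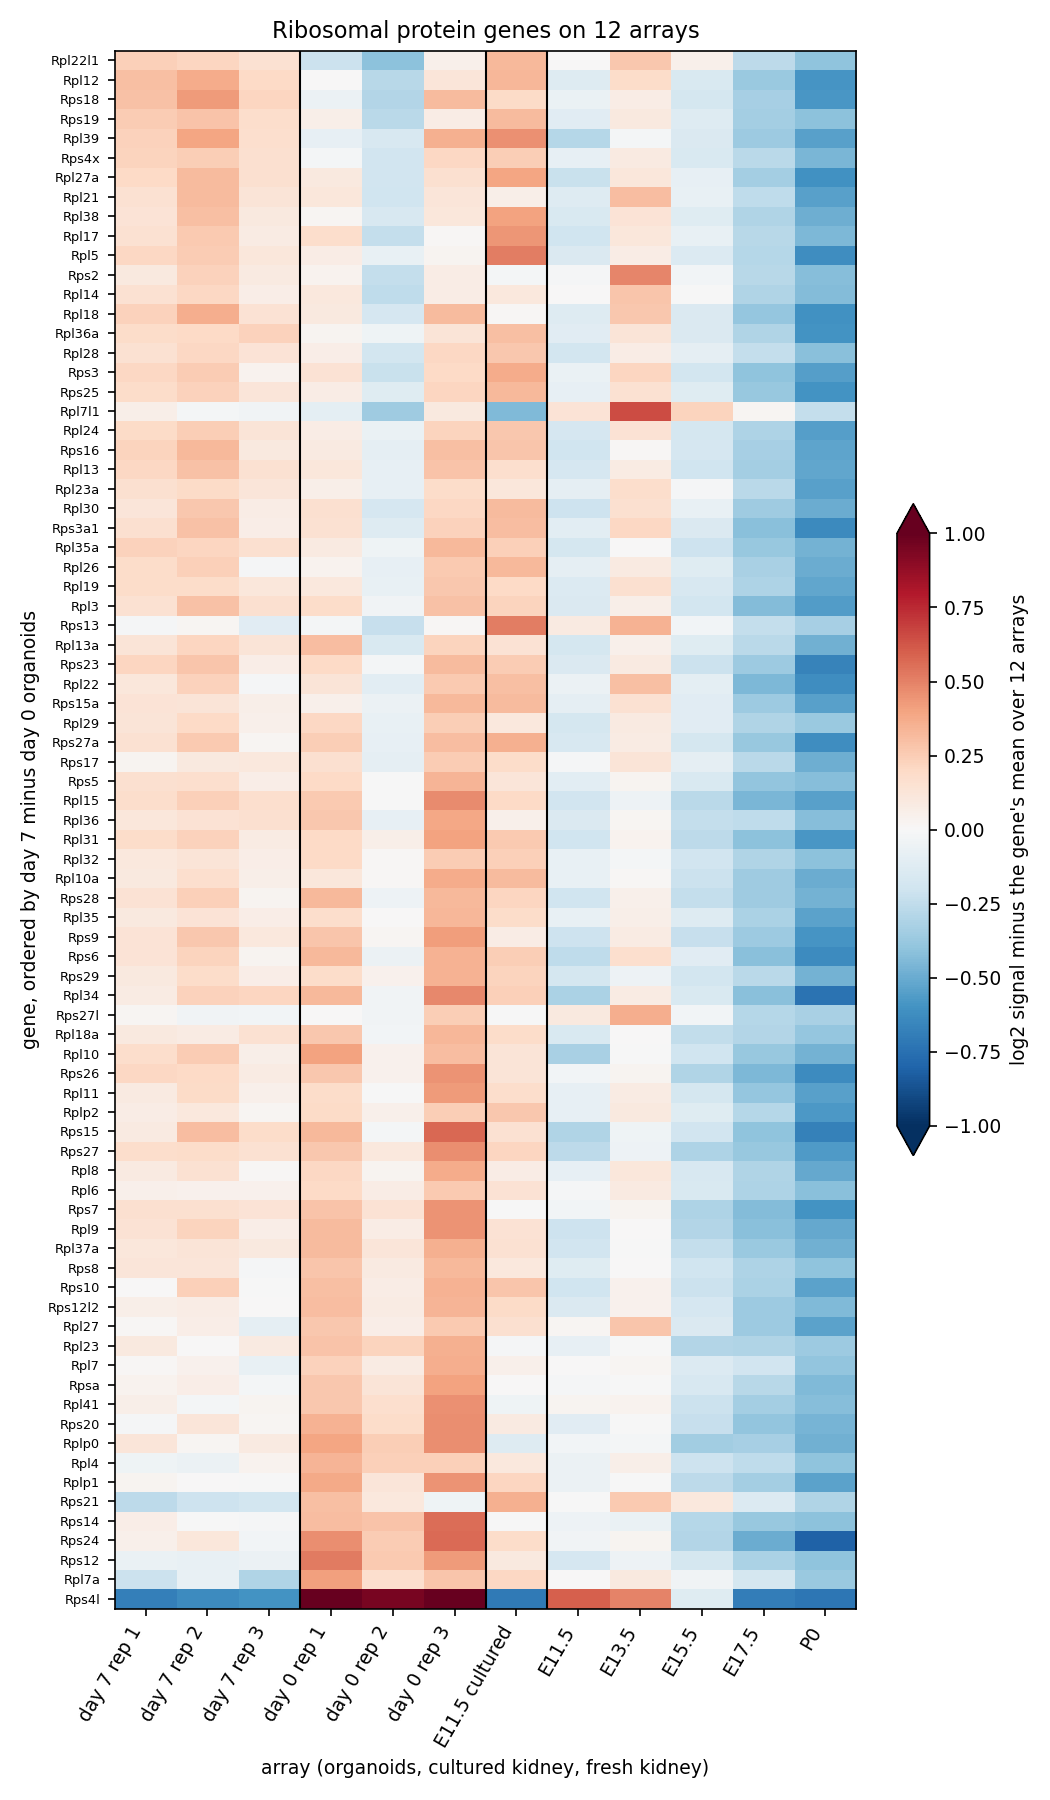
Log2 signal of 80 of the 81 ribosomal protein genes (rows, ordered by day 7 minus day 0) on 12 arrays (columns), each minus the gene's mean over the arrays, with the colour scale cut at -1 and 1. Most members are lowest at P0 and above their mean in cultured E11.5 kidney, and Rps4l in the bottom row differs from the rest.

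Between 50.6% and 63.2% of probes were well above background on an array and 0 spots were saturated. Day 0 arrays were dimmer, with a 75th percentile between 126 and 138, against 201 to 287 elsewhere. All kidney arrays and day 0 replicates 1 and 2 lay on 1 slide, and day 0 replicate 3 and the day 7 arrays on another. Other cell types moved with the groups. The summed level of 4 cell cycle genes (Mki67, Top2a, Ccnb1 and Cdk1, in units of the array's 75th percentile) lay between 49.3 and 54.5 at day 7 and between 30.7 and 32.9 at day 0. It was 50.8 in cultured E11.5 kidney, and in fresh kidney 82.4 at E11.5, 103 at E13.5, 79.4 at E15.5, 59.0 at E17.5 and 41.3 at P0. The summed level of 6 erythroid genes was 0.109 to 0.244 at day 7 (1 of 6 well above background), 16.7 to 53.9 at day 0, 1.97 in cultured E11.5 kidney and 87.1 to 771 in fresh kidney. Of 3 neuronal genes it was 0.816 to 0.988 at day 7, 13.7 to 16.2 at day 0, 2.97 in cultured E11.5 kidney and 0.409 to 4.40 in fresh kidney. All 6 kidney markers (Six2, Wt1, Pax2, Ret, Lhx1 and Foxd1) were well above background on every array, but single markers moved strongly: between day 7 and day 0 organoids Foxd1, of stroma, differed by -3.33 ± 0.10, Lhx1 by 2.81 ± 0.15 and Ret, of the ureteric bud, by 2.47 ± 0.15. Of 3 endothelial genes, Cdh5 differed by 4.52 ± 0.40 and Pecam1 by 1.91 ± 0.34, but Kdr by -1.06 ± 0.08. Their summed level was 7.06 to 10.3 at day 7 and 11.7 to 12.9 at day 0. The sum of 3 skeletal muscle genes was 5.14 to 7.35 at day 7 and 2.46 to 2.76 at day 0. In it only Acta1 was higher at day 7 (2.97 ± 0.15), while Myog (-4.59 ± 0.59) and Myl1 (-2.61 ± 0.64) were lower. The part of these cell types in the results below was not tested, and fewer cells of a type and less RNA per cell cannot be told apart in such samples.

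The first comparison asked what changed while organoids were cultured, as day 7 minus day 0. Few members passed the test: 2 of 81 rose and 12 fell, with 67 not past the threshold (limma, adjusted p under 0.05 over 16622 genes). Of all genes tested 69.9% passed, 28.4% up and 41.5% down. The members' median difference was -0.05, with 34 of 81 above 0, and that of all genes was -0.17. Values of the 3 day 7 and 3 day 0 arrays did not overlap for 25 of 81 members, against 76% of all genes. The 40S members had 0 that rose and 6 that fell (median -0.07), and the 60S members 2 that rose and 6 that fell (median -0.00050).

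Rps4l, a transcribed pseudogene in RefSeq and a relative of the X-linked 40S gene Rps4x, changed far more than any other member. Its log2 values were 3.1, 3.15 and 3.18 on the day 7 arrays, against 4.87, 4.73 and 4.79 on the day 0 arrays. The groups lie far apart, and the spread within each was small. The difference was -1.65 ± 0.07 (SE), or 3.15-fold lower (adjusted p = 8.19e-06). It was between -1.69 and -1.44 under all 19 alternatives and passed the threshold in each. Rps4x itself had 7.5, 7.52 and 7.44 on the day 7 arrays, against 7.26, 7.08 and 7.48 on the day 0 arrays. These groups overlap, and the difference of 0.21 ± 0.11 did not pass (adjusted p = 0.142).

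In kidney Rps4l was lower after culture and at later stages. Rps4l was 3.07 in cultured E11.5 kidney and 4.38 in fresh E11.5 kidney, and then 4.28 at E13.5, 3.66 at E15.5, 3.09 at E17.5 and 3.06 at P0. Day 7 organoids, cultured E11.5 kidney, E17.5 and P0 were all low, E15.5 lay between, and day 0 organoids and E11.5 and E13.5 kidney were high. Rps4x was 7.52 in cultured E11.5 kidney and 7.19 in fresh E11.5 kidney, followed by 7.36, 7.13, 7.00 and 6.82 from E13.5 to P0. Its highest and lowest kidney values thus differ less than those of Rps4l.

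**Figure D2:**
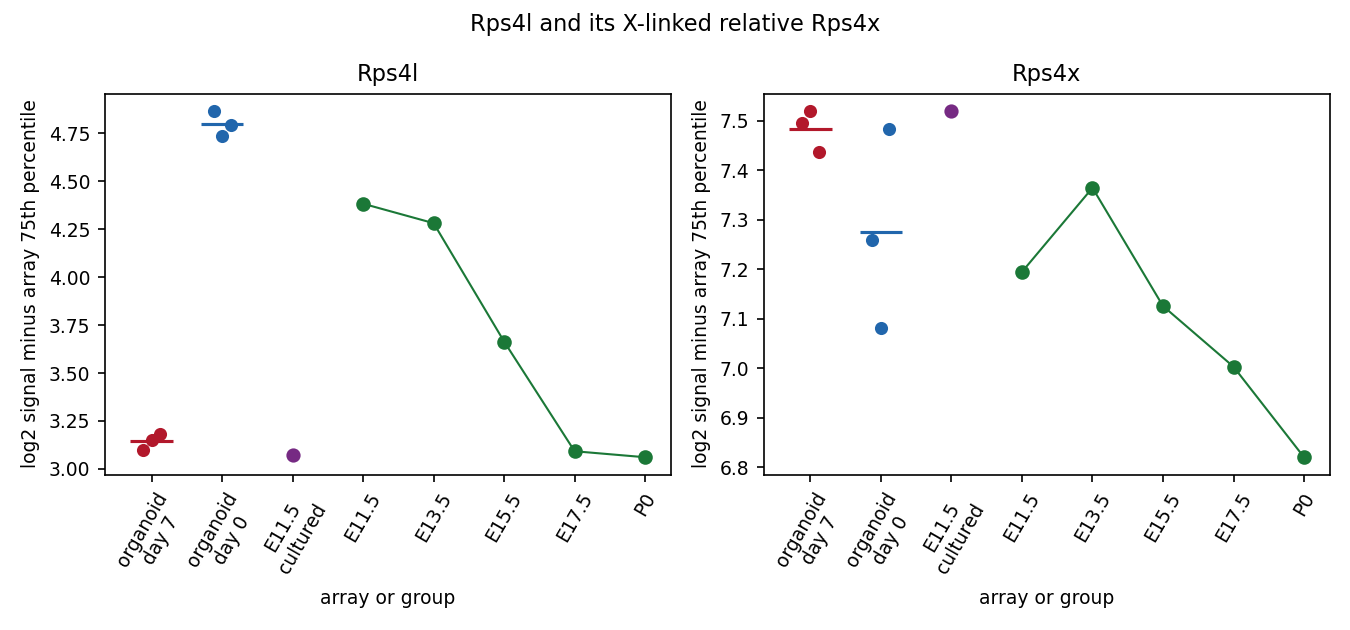
Log2 signal minus the array's 75th percentile for Rps4l (left) and Rps4x (right), with points for arrays, bars for the means of 3 organoid arrays and a line through the 5 stages of fresh kidney. Rps4l lies between 3.06 and 3.18 in day 7 organoids, cultured E11.5 kidney, E17.5 and P0 and between 4.28 and 4.87 in day 0 organoids, E11.5 and E13.5 kidney, and the vertical axes differ.

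Among the other members that fell, Rpl7a, a 60S protein next to the exit tunnel, had 7.59, 7.72 and 7.5 on the day 7 arrays, against 8.21, 7.96 and 8.07 on the day 0 arrays. Rps12, a 40S protein of the head that in Drosophila takes part in cell competition, had 8.75, 8.74 and 8.75 on the day 7 arrays, against 9.33, 9.07 and 9.24 on the day 0 arrays. Neither gene's groups overlap. Rpl7a differed by -0.48 ± 0.10 (adjusted p = 0.00522) and Rps12 by -0.47 ± 0.09 (adjusted p = 0.00322), and both passed under all 19 alternatives. The second probe of Rps12 gave -0.12, while the 4 other probes of Rpl7a gave -0.54 to -0.28. Rps24 (-0.38 ± 0.10) and Rps14 (-0.37 ± 0.10), 40S proteins whose loss in humans underlies Diamond-Blackfan anaemia and the 5q- syndrome, passed under 18 of 19. The exceptions were adjusted p values of 0.055 for Rps24 with day 7 replicate 3 left out and 0.573 for Rps14 with quantile normalization. The other probes of Rps24 gave -0.31, -0.30 and -0.05, and Rps14 has no other probe. The other 7 members that fell were Rps21 (-0.34), Rplp1 (-0.31), Rpl4 (-0.29), Rplp0 (-0.29), Rps20 (-0.29), Rpl41 (-0.28) and Rpl23 (-0.22), all 1.27-fold or less. Rps21 had 6.56, 6.61 and 6.64 on the day 7 arrays and 7.12, 6.93 and 6.78 on the day 0 arrays. The third day 0 array, on the slide of the day 7 arrays, was the nearest to them. With arrays scaled to the members' median, Rps21, Rpl4 and Rpl23 did not pass, while Rplp1, Rplp0, Rps20 and Rpl41 did.

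The 2 members that rose were small changes. Rpl22l1, the relative of Rpl22 whose own messenger Rpl22 protein is known to bind, had 6.94, 6.91 and 6.85 on the day 7 arrays, against 6.48, 6.29 and 6.75 on the day 0 arrays (0.39 ± 0.13, adjusted p = 0.0281). Rpl12, at the base of the stalk of the 60S subunit, had 8.68, 8.75 and 8.58 on the day 7 arrays, against 8.38, 8.10 and 8.50 on the day 0 arrays (0.34 ± 0.12, adjusted p = 0.0408). Neither gene's groups overlap, but the third day 0 array, on the slide of the day 7 arrays, was near them. With slide as a block the difference was 0.15 for Rpl22l1 (adjusted p = 0.298) and 0.17 for Rpl12 (adjusted p = 0.354). Leaving out any array but day 0 replicate 3 also ended both calls, with adjusted p of 0.0553 to 0.0834 for Rpl22l1 and 0.0606 to 0.117 for Rpl12. Rpl22 itself had 7.85, 7.97 and 7.73 on the day 7 arrays and 7.86, 7.63 and 8.0 on the day 0 arrays, which overlap. The next members in order, Rps18 (0.33 ± 0.16), Rps19 (0.28 ± 0.11) and Rpl39 (0.23 ± 0.15), did not pass.

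By role, 2 of the 3 stalk proteins that bring elongation factors to the ribosome fell, Rplp0 and Rplp1, and Rplp2 did not pass (-0.10 ± 0.08), against 69.9% of all genes that passed, 28.4% up and 41.5% down. Rplp0 lost its call in 8 of 19 alternatives, with differences of -0.39 to -0.029, and Rplp1 in 11 of 19, with -0.44 to -0.17. The other probes gave -0.02 and -0.14 for Rplp0 and -0.13 for Rplp1. Against the same shares, of the 12 members mutated in human Diamond-Blackfan anaemia 0 rose and 1 fell (Rps24), and their differences ran from -0.38 to 0.28, the last being Rps19, the gene most often mutated. Rpl5 (0.18 ± 0.08) and Rpl11 (-0.09 ± 0.12), which form a particle with 5S RNA, did not pass. Nor did Rpl10a (-0.06 ± 0.11) and Rps6 (-0.07 ± 0.13), the S6 kinase substrate. Rpl38, needed in mice for the translation of some Hox messengers, was at 0.19 ± 0.10 and did not pass. Of 12 members that have a near relative by name, Rps4l fell, Rpl22l1 rose and 10 did not pass.

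**Figure D3:**
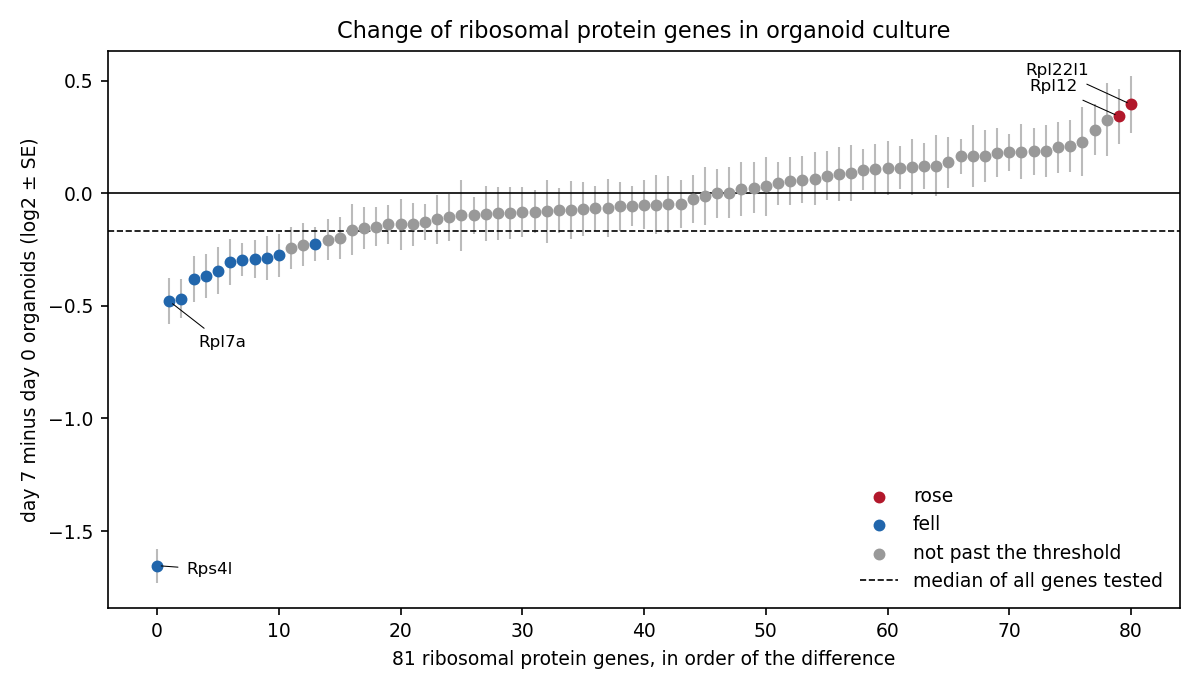
Day 7 minus day 0 organoids (log2 ± SE, 3 arrays each) for 81 ribosomal protein genes in order of the difference, with colours for those that rose, fell or did not pass and a dashed line at the median of all genes tested. Rps4l at -1.65 stands apart, and the other 80 lie between -0.48 and 0.39.

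Brighter members tended to have lower differences. Over 79 members, without Rps4l and Rpl7l1, the difference and the mean signal had a Pearson r of -0.47, and over all 81 of 0.04. Whether signal level or the dimmer day 0 arrays had a part in the calls was not tested. The balance of the small changes depended on how arrays were scaled. Shares of all genes that passed were counted for the main fit only, so the counts that follow have none beside them. With the 75th percentile taken over probes well above background on all arrays 16 members rose and 5 fell, and with normexp background correction 27 rose and 5 fell, while with slide as a block 0 rose and 12 fell. Within the second slide (3 day 7 arrays against day 0 replicate 3) 0 rose and 14 fell. There the spread comes from the day 7 arrays alone, the lone day 0 array being assumed to vary like them, and this is 1 of the 19 alternatives. Without 1 array the counts were 0 and 7 (day 7 replicate 1), 0 and 7 (day 7 replicate 2), 0 and 5 (day 7 replicate 3), 0 and 6 (day 0 replicate 1), 0 and 17 (day 0 replicate 2) and 6 and 8 (day 0 replicate 3). Scaled to the members' own median, which shows only how members changed against each other, 4 rose (Rpl22l1, Rpl12, Rps18 and Rps19) and 10 fell, among them Rps4l, Rpl7a, Rps12, Rps24 and Rps14.

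The second comparison set day 0 organoids against fresh E11.5 kidney, the source of their stroma. Most members were slightly higher in day 0 organoids: 75 of 81 differences were above 0, with a median of 0.28, against 0.04 for all genes. Of 17244 genes tested 32.9% passed, 17.4% up and 2676 genes down, while 7 members rose and 0 fell. They were Rps12 (0.57 ± 0.12, adjusted p = 0.0173), Rpl10 (0.57 ± 0.16), Rps27 (0.54 ± 0.15), Rpl37a (0.45 ± 0.12), Rps4l (0.42 ± 0.10), Rplp0 (0.39 ± 0.12) and Rpl23 (0.37 ± 0.11). Rps15 (0.59 ± 0.23) and Rpl34 (0.58 ± 0.20) had the largest differences and did not pass. Rpl10, a 60S protein that joins late in assembly, had 9.27, 8.91 and 9.18 on the day 0 arrays and 8.55 in E11.5 kidney, so every day 0 array lay above. At the other end were Rpl7l1 (-0.25 ± 0.18), Rpl22l1 (-0.19 ± 0.18), Rps13 (-0.17 ± 0.13), Rps2 (-0.03 ± 0.15) and Rps27l (-0.03 ± 0.14), of which none passed.

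These calls rest on 1 kidney array, assumed to vary like an organoid replicate, and on the scaling. For the counts that follow, the shares of all genes were not counted. The number that rose was 1 without day 0 replicate 1 or without any one of the day 7 arrays, which only add to the estimate of spread, 28 without day 0 replicate 2 and 3 without day 0 replicate 3. Rps12 kept its call in 15 of 18 alternatives and Rplp0 in 5. The number that rose was 0 with the replicate block, and with quantile normalization 2 rose, 1 fell and the median was 0.03.

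The third comparison set day 7 organoids against E11.5 kidney cultured for as long. Of 81 members 0 passed, against 7.73% of 17126 genes (4.51% up, 3.22% down; limma), with 6 at an unadjusted p under 0.05, and the median difference was -0.07. Among those furthest below cultured kidney were Rps21 (-0.58 ± 0.15, adjusted p = 0.0692), Rps13 (-0.55 ± 0.13, adjusted p = 0.0616), Rpl7a (-0.40 ± 0.14) and Rpl5 (-0.32 ± 0.11). Rps13, a 40S protein, had 7.87, 7.90 and 7.77 on the day 7 arrays and 8.40 in cultured kidney. Furthest above were Rpl7l1 (0.45 ± 0.18), Rpl18 (0.24 ± 0.20), Rplp0 (0.20 ± 0.12), Rps7 (0.16 ± 0.14) and Rps2 (0.15 ± 0.15), and none passed. Rps4l differed by 0.07 ± 0.10. The day 7 and cultured kidney arrays lie on different slides, and with slide as a block 0 members passed and the median was -0.30.

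Cultured against fresh E11.5 kidney, with 1 array each and no test, showed the members higher. 44 of 81 were higher by at least 1.25-fold, against 27.3% of 17844 genes, and 2 were lower, against 36.6%. The median was 0.33, against -0.12 for all genes. The highest were Rpl39 (0.74), at the exit tunnel, Rpl5 (0.65) and Rpl17 (0.65). The 2 lower members were Rps4l (-1.31) and Rpl7l1 (-0.58). With quantile normalization 5 were higher by that fold and 3 lower, and the median was 0.10.

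Set side by side, culture moved organoids and kidney differently for Rps12 by the test of the difference itself. Rps12 changed by -0.47 in organoids and by 0.27 in kidney, where it was 8.91 in cultured and 8.64 in fresh E11.5 kidney. The difference of the changes was -0.74 ± 0.18 (adjusted p = 0.0427). It was the only member of 81 to pass, against 15.3% of 18000 genes (8.44% up, 6.84% down). Its adjusted p was 0.018 to 0.196 over 18 alternatives, and 6 of them kept the call. With the mean of its 2 probes it was -0.55 (adjusted p = 0.0871). Without any one array other than day 0 replicate 2 the adjusted p was 0.0645 to 0.0988. Rps21 (-0.70 ± 0.21), Rpl7a (-0.69 ± 0.20), Rps10 (-0.64 ± 0.23) and Rpl34 (-0.64 ± 0.29) came next and did not pass. On the positive side were Rpl7l1 (0.70 ± 0.25), Rps2 (0.18 ± 0.22), Rpl22l1 (0.07 ± 0.26), Rps18 (0.07 ± 0.33) and Rpl14 (0.07 ± 0.24), and none passed. Rps12l2 was at -0.53 ± 0.19 (adjusted p = 0.11). The median of the members was -0.35, and -0.05 with quantile normalization. Across the 81 members, as a description over arrays that share their scaling, the organoid and kidney changes had a Pearson r of 0.65, and of 0.35 without Rps4l.

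Through kidney development, with 1 array a stage, the members were highest at E13.5 and lower at each later stage. Of 81 members, 79 were highest at E13.5, against 30.3% of 19028 genes, and the other 2 were Rps14 and Rps4l, which were highest at E11.5. All 81 were lowest at P0, against 39.4% of genes, and 80 were lower at each step from E13.5 to P0, against 29.5%. The exception was Rplp0, which was 8.70 at E15.5 and 8.71 at E17.5. The median steps were 0.22 to E13.5, -0.25 to E15.5, -0.17 to E17.5 and -0.17 to P0, and those of all genes were 0.07, -0.11, -0.07 and -0.04. By 1.25-fold, 9 members were higher and 0 lower at E13.5 than at E11.5, against 26.2% and 21.4% of genes. At E15.5 against E13.5 0 were higher and 16 lower, against 21.8% and 26.5%, and Rps4l (-0.62) and Rps2 (-0.52) were lowest. At E17.5 against E15.5 the counts were 0 and 2, against 18.7% and 21.3%, and at P0 against E17.5 0 and 2, against 19% and 20.1%. With quantile normalization the median steps were 0.05, -0.02, -0.03 and -0.06. Under it 26 members were lower at E13.5 than at E11.5, and 30, 24 and 16 were higher at the steps to E15.5, E17.5 and P0, against 2, 0, 1 and 0 with the 75th percentile. With the array median 75 members were higher by 1.25-fold at E13.5 than at E11.5 and all 81 were lower by it at E15.5 than at E13.5. Both the size and the direction of the steps thus depended on the scaling.

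The slope over the 5 stages, per stage step, was below 0 for all 81 members with the 75th percentile, but above 0 for 25 with quantile normalization and for 48 when arrays were scaled to the members' median. Its median was -0.12, against -0.05 for all genes. By limma 0 members rose and 2 fell, against 27.2% of genes that passed, 12.5% up and 14.7% down. Rps4l had a slope of -0.38 ± 0.06 (adjusted p = 0.0185). Rps24 had a slope of -0.21 ± 0.05 (adjusted p = 0.0427), with 8.87, 8.94, 8.62, 8.41 and 8.10 from E11.5 to P0. This fall was that of 1 probe of Rps24: from E11.5 to P0 the chosen probe differed by -0.78 and its 3 others by -0.29, -0.22 and -0.06. With the mean of its probes the slope of Rps24 was -0.10 (adjusted p = 0.199), and it did not pass in 10 of 15 alternatives, among them the array median (adjusted p = 0.145) and quantile normalization (adjusted p = 0.102). Only Rps4l passed also when scaled to the members' median (-0.25, adjusted p = 0.0489). It did not pass without E17.5 (adjusted p = 0.0627) or without P0 (adjusted p = 0.0835), and Rps24 passed without E11.5 and not without any other stage (adjusted p = 0.0637 to 0.254). Without E11.5, 39 members fell, and without E13.5 or E15.5 1 fell, and without E17.5 or P0 0 fell. The shares of all genes that fell were not counted for these fits. The steepest slopes after these were Rpl22 (-0.19 ± 0.07), Rpl27 (-0.18 ± 0.06) and Rps3a1 (-0.17 ± 0.07), and none passed.

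**Figure D4:**
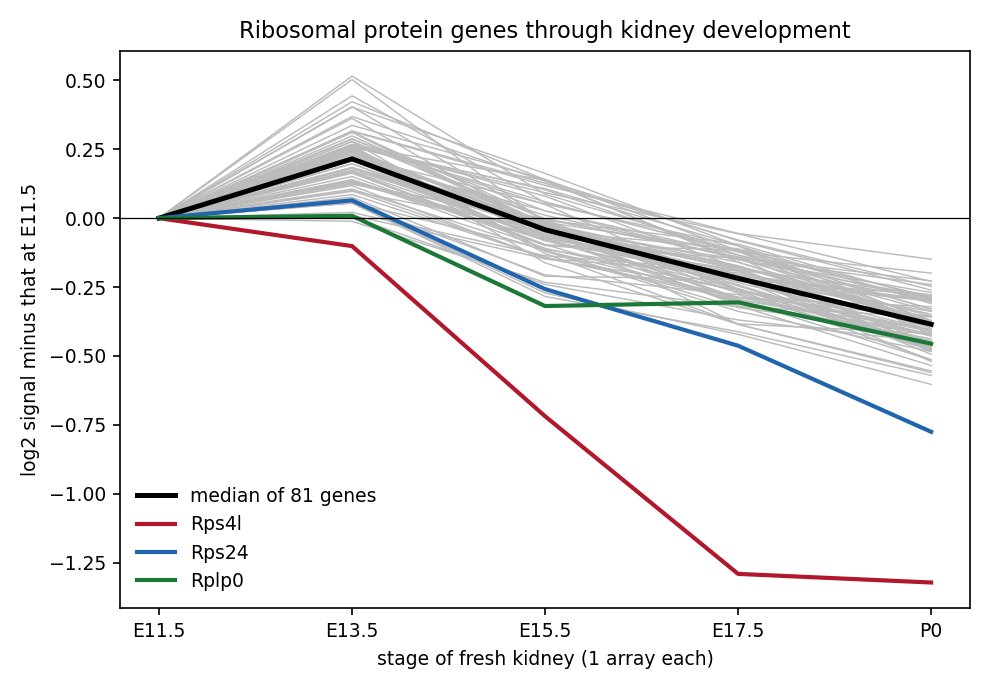
Log2 signal minus that at E11.5 (vertical axis) of 81 ribosomal protein genes at 5 stages of fresh kidney with 1 array each (horizontal axis), in grey, with their median in black and 3 members in colour. The median is 0.22 at E13.5 and below 0 from E15.5 on, and Rps4l is lowest at every later stage.

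Lists of genes that work with the ribosome are set beside the members as counts and medians. Of 78 mitochondrial ribosomal proteins, 4 rose and 53 fell in organoid culture, against 28.4% and 41.5% of all genes, with a median of -0.44, beside -0.05 for the cytosolic members. Mrpl41 (-1.03 ± 0.13), Mrpl49 (-0.97 ± 0.11) and Mrps12 (-0.95 ± 0.14), proteins of the mitochondrial ribosome, differed most. Between day 0 organoids and E11.5 kidney 6 rose and 0 fell, against 32.9% of 17244 genes that passed, 17.4% up, with 2676 genes down. Along the stages 0 of the 78 passed, against 27.2% of genes.

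Of 43 genes of ribosome assembly, 0 rose and 23 fell in day 0 organoids against E11.5 kidney. Of all 17244 genes tested there 32.9% passed, 17.4% up, and 2676 genes fell. The assembly genes had a median of -0.45, where the cytosolic members had a median of 0.28. Gar1 (-1.27 ± 0.12) and Dkc1 (-1.27 ± 0.12), parts of the particle that modifies ribosomal RNA, and Nolc1 (-1.10 ± 0.10), a nucleolar chaperone, differed most. In organoid culture 4 rose, among them Sbds (0.95 ± 0.08) and Gar1 (0.66 ± 0.09), and 16 fell, among them Tsr2 (-0.84 ± 0.10), the chaperone of Rps26, against 28.4% up and 41.5% down. Along the stages 0 rose and 21 fell, against 12.5% up and 14.7% down, among them Rrp12 (-0.53 ± 0.10) and Dkc1 (-0.48 ± 0.11). Against culture in kidney, the organoid change was higher for 13 and lower for 0, against 8.44% and 6.84% of genes. Of the 4 cell cycle genes, 4 fell in day 0 organoids against E11.5 kidney, 4 rose in organoid culture, 4 were higher in the difference of the culture changes and 1 fell along the stages, and their part in these counts was not tested.

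The shares of all genes to set beside the following counts are 28.4% up and 41.5% down in organoid culture. Along the stages they are 12.5% up and 14.7% down. For day 0 organoids against E11.5 kidney 32.9% of 17244 genes passed, 17.4% up, and 2676 genes fell. Of 11 other messengers that carry a TOP motif, 1 rose (Eif4b, 0.83 ± 0.14) and 4 fell in organoid culture, among them Hnrnpa1 (-0.74 ± 0.08) and Npm1 (-0.29 ± 0.09). In day 0 organoids against E11.5 kidney Fau (0.63 ± 0.16), which gives the ribosomal protein Rps30, and Tpt1 (0.52 ± 0.13) rose. Along the stages 5 fell, among them Npm1 (-0.38 ± 0.07), Nap1l1 (-0.35 ± 0.07) and Hnrnpa1 (-0.32 ± 0.06). Of 6 elongation factors 1 passed in organoid culture, Eef1a1 (-0.21 ± 0.08), and 0 in the other comparisons. Of 26 initiation factors 2 rose and 7 fell in organoid culture, among them Eif5b (-0.93 ± 0.21) and Eif4g2 (-0.84 ± 0.11), and 0 rose and 6 fell along the stages.

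Of 16 genes of growth control, 5 rose and 6 fell in organoid culture, shares near the 28.4% and 41.5% of all genes. Eif4ebp1, the mTOR-regulated inhibitor of Eif4e, rose by 1.8 ± 0.10 and Mycn, a driver of ribosome production, by 1.39 ± 0.07, and the S6 kinase gene Rps6kb2 fell by 1.24 ± 0.13. In day 0 organoids against E11.5 kidney Mycn (-1.55 ± 0.10) and Myc (-1.36 ± 0.09) were lower. Of 11 p53 targets tested, 7 rose in organoid culture, against 28.4% of all genes, with Cdkn1a at 3.53 ± 0.21 and Phlda3 at 1.65 ± 0.11, and 2 fell, against 41.5%, with Trp53inp1 at -1.91 ± 0.08.

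**Figure D5:**
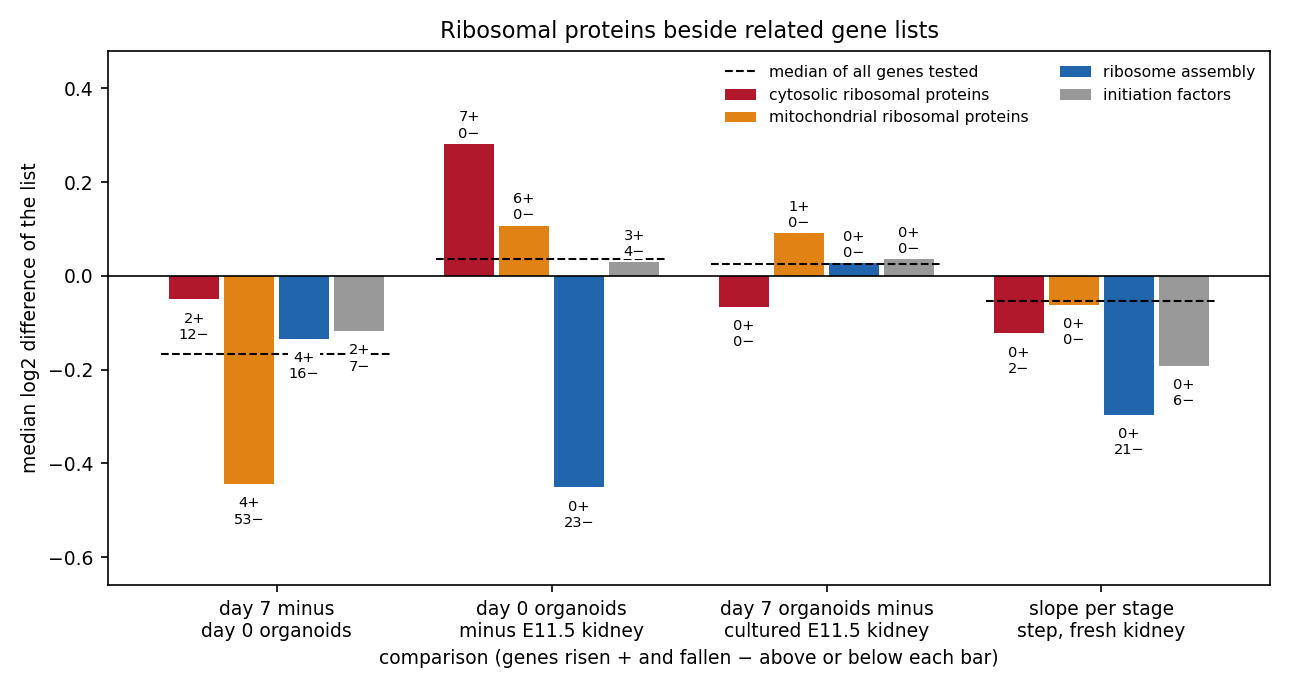
Median log2 difference (bars) of cytosolic ribosomal proteins (81 genes), mitochondrial ribosomal proteins (78), ribosome assembly genes (43) and initiation factors (26, of which 25 were tested in the third comparison) in 4 comparisons, with the numbers of genes that rose (+) and fell (−) and a dashed line at the median of all genes tested. The mitochondrial list is lowest in organoid culture (-0.44), and the assembly list is lowest in day 0 organoids against E11.5 kidney (-0.45), where the cytosolic list is at 0.28.

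Other probes of the members gave a check on the chosen ones. In 61 members 105 other probes were well above background on all 12 arrays, and 78 of them differed from the chosen probe by less than 0.25 in the day 7 minus day 0 difference. Another 7 probes, in 6 members, differed by over 0.5. For Rpsa, the laminin receptor protein of the 40S subunit, the chosen probe gave -0.24 and 2 others gave 0.35 and 0.43. For Rpl31 the chosen probe gave -0.05 and another -1.09, and for Rpl15 the values were -0.05 and -0.86. All 105 other probes were lower at P0 than at E13.5, and the share of all probes was not counted. They share the arrays and the scaling with the chosen probes, so they cannot check how the stage steps depend on these. Rps4l, Rpl22l1 and the other members with a single probe (20 in all) could not be checked in this way.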

How the data were processed

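RNA was measured on 12 one-colour Agilent arrays of 62976 spots (55681 probes). The deposited intensity values are the processed signals of Feature Extraction, which version 11.5.1.1 wrote per the file headers and version 10.7.3.1 per the submitters' processing notes. The authors' deposited table holds log2 values equal to the log2 signals up to a constant for each array.

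Outlier spots (108 to 206 an array) were left out, spots of 1 probe were averaged, and the log2 signal minus the array's 75th percentile was used, with 1 probe a gene (the one with the highest mean). Probes were named by accession (28026), symbol (3418), synonym (295) or the name in the file (2036), and 21906 had none. Genes well above background in a comparison were tested with limma 3.58.1 (R 4.3.3) and Benjamini-Hochberg adjustment over all of them. The organoid groups (6 arrays) were fitted alone, and comparisons with E11.5 kidney used 8 arrays in 4 groups, where each single kidney array takes its spread from the organoid arrays. The stage slope used 5 arrays. The test was tried on simulated data. Tables were handled with Python 3.11.15 and pandas 2.3.3. With 1 array a stage, the number of arrays limits the precision. A pair of arrays was compared by a 1.25-fold difference.

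The members and gene lists were chosen with earlier results of these data known. Named members are the 5 furthest each way in a tested comparison, 3 each way in an untested pair, those of the role groups, the 5 least alike and up to 3 genes a related list. The other probes of Rps12, Rpl7a and Rps24 and the Rpl10 and Rps13 values were picked after values were seen. Values of some genes are not reported here.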

Additional observations from a re-analysis of the deposited data

Results flagged for a closer look

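The culture change of Rps12 differed between organoids and E11.5 kidney in a test of the difference itself. Rps12 changed by -0.47 in organoids (day 7 against day 0, 3 arrays each) and by 0.27 in E11.5 kidney (cultured against fresh, 1 array each), and the difference was -0.74 ± 0.18 (limma, adjusted p = 0.0427). The adjusted p was 0.018 to 0.196 over 18 alternatives, of which 6 kept the call. All 3 day 7 arrays lay below all 3 day 0 arrays, but the 2 groups did not overlap for 76% of all genes either. This bears on the organoid change only. The second probe of Rps12 changed by -0.12 in organoids and by 0.25 in kidney. Scaled to the members' median, the difference for the chosen probe was -0.41 and did not pass.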

How the results depend on the processing

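The counts of members that passed, both directions together, moved with the processing, and the cause was not tested. The share of all genes that passed was counted for the main fits only. In organoid culture (14 passed) 8 passed with the array median, 32 with normexp, 9 without a background filter and 7 with the replicate block, and 5 to 17 without 1 array. The median difference of -0.05 turned to 0.072 with the 75th percentile over detected probes, 0.047 with quantile normalization, 0.12 with normexp and 0.043 without day 0 replicate 3, and was -0.134 to 0.043 without 1 array. The median of all genes was -0.17, and -0.04 with the percentile over detected probes.

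For day 0 organoids against E11.5 kidney (7 passed) 3 passed with quantile normalization, 2 when scaled to the members' median, 4 without a filter, 13 with a filter on every array, 18 with limma's trend and robust options, 3 with the slide block and 0 with the replicate block, and 1 to 28 without 1 array. Scaled to the members' median, the calls were Rpl7l1 (-0.51) and Rpl22l1 (-0.45), both lower in day 0 organoids, in place of the 7 that rose. Rplp0 turned to -0.023 with quantile normalization. For day 7 organoids against cultured kidney (0 passed) 2 passed with the percentile over detected probes, 1 with quantile normalization, 4 with normexp, 2 with a filter on every array and 2 with trend and robust, and 0 to 1 without 1 array; the median turned to 0.12 with the array median.

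For the difference of the culture changes (1 passed) 0 passed with the array median, quantile normalization, the mean of probes, no filter, the slide block and the replicate block, 6 with normexp and 3 with a filter on every array or with trend and robust, and 0 to 6 without 1 array. Scaled to the members' median, 1 passed, Rpl7l1 (1.02, adjusted p = 0.0189 by limma) in place of Rps12. For the stage slope (2 passed) 1 passed with the array median, the percentile over detected probes, quantile normalization, the members' median and no filter, 6 with normexp, 4 with a filter on every array or with trend and robust, 0 with a slope per embryonic day without P0, and 0 to 39 without 1 array. Scaling to the members' median was added after the data were seen.

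Replicate numbers are shared by the organoid groups, but same-numbered arrays did not deviate together (correlations -0.01, -0.14 and -0.01 over 16615 genes). The main fits therefore did not pair them, though such correlations cannot show whether same-numbered organoids share an origin, which the labels do not give. With the replicate block 7, 0, 0 and 0 members passed in the organoid culture, day 0, day 7 and difference comparisons.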
